A study of Mus musculus with 12 samples.

Results

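Expression of the genes for voltage-gated sodium and calcium channels, for potassium channels and for HCN channels was followed in 12 mRNA libraries of mouse neurons. Genes were chosen by symbol alone (Scn with a digit and a or b, Cacna, Kcn, and Hcn with a digit), and a gene was kept in a table where it averaged at least 1 FPKM (fragments scaled to transcript length and library total) over that table's 6 libraries. This kept 81 of 122 channel genes in the H-Ras table and 82 of 124 in the etoposide table, 80 of them in both and 83 in at least 1, among 18607 genes listed in either table. The cells were primary neurons of C57BL/6 mice, collected after 10 days. In the first table, neurons that received H-Ras(G12V) through AAV (adeno-associated virus) were compared with neurons that received mCherry, a red fluorescent protein, with 3 libraries in each group. H-Ras(G12V) is a mutant of the small GTPase H-Ras that stays in its active state. In the second, etoposide, which traps topoisomerase II on cut DNA, was compared with its solvent DMSO, again with 3 libraries each, in cells labelled wild type. The series uses H-Ras(G12V) as a model of oncogene-induced senescence and etoposide as a model of stress-induced premature senescence, and asks what these ageing models of neurons share. The sources used here do not give the promoter of the virus, the dose of etoposide, the brain region or the age of the mice. For the 6 etoposide and DMSO libraries the treatment tag names the opposite group to the title and library name; groups follow the titles, which the column names of the table also follow, so every direction for etoposide is that of the libraries titled etoposide. Whether replicate libraries stem from different cultures or mice is not stated, and the p-values cover only the variation among the libraries at hand, which could be technical.

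Libraries of a group did not always resemble each other in these genes. Over the 81 channel genes, mCherry libraries 1 and 2 had a rank correlation of 0.992 with each other and each of 0.73 with mCherry library 3. Rank correlations of etoposide library 3 were 0.889 to 0.98 with the DMSO libraries but 0.699 and 0.824 with the other etoposide libraries. Results are therefore also given without these libraries. Depth, roughly estimated from the steps of low FPKM values, was 15600000 to 16900000 fragments in the first table and 25300000 to 30500000 in the second. Mouse Hras itself had a log2 fold change of -0.13 with H-Ras(G12V) (limma adjusted p = 0.624); whether transcripts of the viral construct count towards this symbol is not known here. Of 15 neuronal marker genes, all were listed above the 1 FPKM minimum in both tables.

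Voltage-gated sodium channels, built of a pore-forming alpha subunit and auxiliary beta subunits, carry the rising phase of the action potential. Voltage-gated calcium channels couple depolarisation to transmitter release and gene expression, with alpha2delta subunits that help the pore reach the membrane. Potassium channels set the resting potential and end action potentials: Kv channels open on depolarisation, Kir (inward rectifier) and K2P (leak) channels hold the membrane near rest, and calcium-activated channels follow firing. HCN channels open on hyperpolarisation and carry a pacemaker current.

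Promoter sequence is shown for 5 potassium channel genes on which the results turn: Kcnf1 and Kcnip3, which rose with H-Ras(G12V), Kcnj3 and Kcna4, which fell, and Kcnj10, whose response differed between the models. Each run is the 250 bases before an annotated start, 5′ to 3′ on the gene's strand, from RefSeq on GRCm38.p6, a later build than the mm9 of the deposited values. Capitals mark matches, on either strand, to the AP-1 motif TGANTCA (the site of Fos and Jun dimers, which act downstream of Ras signalling) or to the GC box GGGCGG (the Sp1 site).
Kcnf1: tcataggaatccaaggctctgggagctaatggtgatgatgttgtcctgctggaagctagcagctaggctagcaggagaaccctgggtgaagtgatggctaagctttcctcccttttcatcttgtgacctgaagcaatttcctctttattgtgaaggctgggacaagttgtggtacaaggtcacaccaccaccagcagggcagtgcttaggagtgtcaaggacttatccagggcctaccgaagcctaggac
Kcnip3: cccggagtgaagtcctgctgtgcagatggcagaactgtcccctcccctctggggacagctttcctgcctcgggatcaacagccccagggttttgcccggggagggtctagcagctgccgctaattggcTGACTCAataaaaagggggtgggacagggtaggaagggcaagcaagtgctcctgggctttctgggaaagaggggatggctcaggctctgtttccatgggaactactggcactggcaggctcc
Kcnj3: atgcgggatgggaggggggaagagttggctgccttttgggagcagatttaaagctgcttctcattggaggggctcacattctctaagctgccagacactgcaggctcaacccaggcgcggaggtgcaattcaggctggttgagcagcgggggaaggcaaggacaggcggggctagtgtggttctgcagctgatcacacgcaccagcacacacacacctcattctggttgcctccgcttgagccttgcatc
Kcna4: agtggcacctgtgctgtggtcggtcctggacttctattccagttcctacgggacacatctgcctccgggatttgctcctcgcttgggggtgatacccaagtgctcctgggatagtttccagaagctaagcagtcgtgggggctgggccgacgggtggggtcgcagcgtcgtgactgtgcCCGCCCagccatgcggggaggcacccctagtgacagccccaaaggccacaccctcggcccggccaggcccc
Kcnj10: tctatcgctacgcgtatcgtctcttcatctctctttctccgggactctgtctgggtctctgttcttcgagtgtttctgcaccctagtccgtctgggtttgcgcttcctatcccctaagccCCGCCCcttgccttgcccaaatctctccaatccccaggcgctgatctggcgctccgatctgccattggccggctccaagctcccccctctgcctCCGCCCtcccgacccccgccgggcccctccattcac
The windows lie at chr12:17176889-17177138, minus strand, for Kcnf1; chr2:127522095-127522344, minus strand, for Kcnip3 (1 of 3 starts in the table); chr2:55435720-55435969, plus strand, for Kcnj3; chr2:107290339-107290588, plus strand, for Kcna4; and chr1:172340960-172341209, plus strand, for Kcnj10. Which start was in use cannot be read from FPKM per gene. The Kcnip3 window holds 1 AP-1 match, the Kcna4 window 1 GC box and the Kcnj10 window 2. Of the 3 Kcnip3 starts, the one with the most AP-1 matches was chosen for display. The choice itself favoured showing that match. CpG dinucleotides number 1 in the Kcnf1 window, 4 in Kcnip3, 7 in Kcnj3, 14 in Kcna4 and 17 in Kcnj10. RefSeq promoters matched 56 of the 83 channel genes, in 83 windows. The AP-1 motif was in 3.61% of these windows and in 6.75% of all 32851 windows, the GC box in 42.2% and 32.7%, and the TATA motif TATAAA in 4.82% and 12.4%. Median CpG number was 8 in the channel gene windows and 6 in all. Of all 32851 windows, 37.8% had a start that matched the start of a GENCODE M21 transcript over 20 bases. The motif and CpG values hold for the windows as listed. A match is a run of letters, not a bound site.

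Levels are given as FPKM, which is corrected for length, so genes can be compared. In the mCherry group, the sodium channel beta gene Scn3b averaged 40.4 ± 7.22 (SD, n = 3) and the pore gene Scn2a (Nav1.2) 31.2 ± 3.47. The potassium channel gene Kcnj10 (Kir4.1, best known from astrocytes) averaged 47.7 ± 25.2, a spread that covered both. In the DMSO group Kcnip2 (87.4 ± 15.8), Kcnab2 (74.3 ± 21.2) and Kcnip3 (70.3 ± 20.3), all accessory subunits of Kv channels, were the highest potassium channel genes, again within each other's spread. Hcn2 had the highest mean of the HCN genes in all 4 groups, at 14.3 ± 0.641 in mCherry, 9.49 ± 3.28 in H-Ras(G12V), 23.0 ± 3.86 in DMSO and 29.2 ± 4.45 in etoposide. In the H-Ras table Hcn3 came close, at 11.5 ± 5.27 in mCherry and 9.19 ± 2.87 in H-Ras(G12V), so that the spreads of the 2 genes overlapped.

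H-Ras(G12V) was accompanied by lower expression of a set of sodium, calcium and potassium channel genes and higher expression of 3 other potassium channel genes. Of 81 channel genes, 15 fell and 3 rose at an adjusted p under 0.05 (limma on log2(FPKM + 1), Benjamini-Hochberg over all 12724 tested genes). In the same fit 6.67% of all tested genes fell and 10.3% rose, 17.0% being called in all. The 15 that fell were 3 of 7 sodium, 4 of 11 calcium and 8 of 59 potassium channel genes; all 3 that rose were potassium channel genes. Kcnmb2, 1 of the 15, passed the 1 FPKM minimum only through its control group. Genes that pass in this way had to differ. Of the 76 with both group means at or above 1 FPKM, 14 fell and 3 rose. The median log2 fold change was -0.43 over the channel genes and 0.05 over all tested genes. All 3 H-Ras(G12V) libraries lay below all 3 mCherry libraries in 29 channel genes and above them in 6, which compares with 16.6% and 23.7% of all tested genes. The 29 include Kcnmb2, Kcnb2 and Kcns1, which passed the minimum only through their control group. In bulk RNA, fewer cells of a type and less RNA per cell cannot be told apart.

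**Figure D1:**
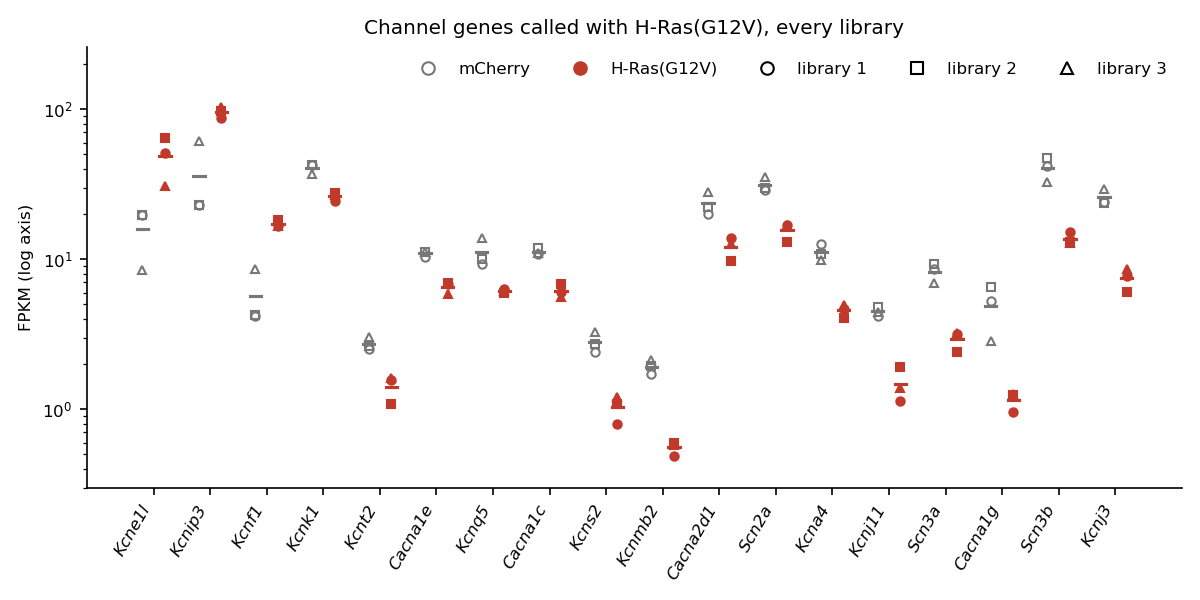
FPKM (log axis) of the 18 channel genes called with H-Ras(G12V), ordered from the largest rise to the largest fall; open grey symbols are mCherry and filled red symbols H-Ras(G12V) libraries 1 to 3 (circle, square, triangle), and bars are group means. Kcne1l, Kcnip3 and Kcnf1 lie above their controls, and for the other 15 genes all H-Ras(G12V) libraries lie below all mCherry libraries.

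Among sodium channel genes, 2 of 4 pore genes and 1 of 3 beta genes fell. Scn3b, which encodes the beta3 subunit typical of developing neurons, read 15.3, 13.0 and 12.8 FPKM in H-Ras(G12V) libraries 1 to 3 and 41.7, 47.0 and 32.7 in mCherry libraries 1 to 3. The groups were far apart, with a log2 fold change of -1.48 ± 0.161 (SE; limma adjusted p = 0.00347), and Scn3b was called under each of the 16 alternative settings tried. Scn3a (Nav1.3, also an embryonic form) read 3.16, 2.39 and 3.23 against 8.58, 9.25 and 6.95 (log2 fold change -1.24 ± 0.158, adjusted p = 0.00567). Scn2a read 17.0, 13.0 and 16.8 against 28.8, 29.7 and 35.2, with no overlap (-0.96 ± 0.149, adjusted p = 0.00993). Scn8a (Nav1.6, the adult isoform of the axon initial segment) read 10.4, 12.1 and 10.9 against 7.73, 8.49 and 17.7, so that the H-Ras(G12V) values lay between the controls. Scn8a made up 33.0 ± 5.75% of the summed FPKM of the 4 pore genes in H-Ras(G12V) and 18.3 ± 4.2% in mCherry libraries. The beta gene Scn2b (12.5, 13.9 and 15.3 against 6.76, 7.21 and 41.3) was not called, with mCherry library 3 far above the other controls. Without that library, 3 of the 7 sodium channel genes were called higher and 3 lower, where 25.4% and 19.5% of all tested genes were.

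Among calcium channel genes, 3 of 8 pore genes and 1 of 3 alpha2delta genes fell and none rose. Cacna1g (Cav3.1, a low-threshold T-type channel) read 0.96, 1.24 and 1.27 FPKM against 5.30, 6.52 and 2.84, the largest fall of the calcium set (-1.40 ± 0.254, limma adjusted p = 0.0154). Cacna1c (Cav1.2, the main neuronal L-type channel) read 6.04, 6.80 and 5.56 against 10.8, 11.9 and 10.9 (-0.78 ± 0.122, adjusted p = 0.0103). Cacna1e (Cav2.3, R-type) read 6.82, 6.96 and 5.84 against 10.4, 11.2 and 11.2 (-0.66 ± 0.12, adjusted p = 0.0149). Both sets of controls were tight, and no H-Ras(G12V) value reached them. Cacna2d1, an alpha2delta subunit and the target of gabapentin, read 13.9, 9.75 and 12.7 against 20.2, 22.3 and 28.1 (-0.91 ± 0.178, adjusted p = 0.019). Cacna1a (P/Q-type), which serves release at most central synapses, read 11.2, 14.5 and 10.8 against 11.1, 11.4 and 13.7, and the groups overlapped. Its N-type counterpart Cacna1b read 6.43, 7.36 and 4.83 against 15, 15.6 and 8.14, with groups apart but an adjusted p of 0.0542.

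The 3 potassium channel genes that rose encode a silent Kv subunit and accessory subunits. Kcnf1 (Kv5.1, which forms no channel alone but joins Kv2 pores) read 16.6, 18.2 and 16.8 FPKM in H-Ras(G12V) against 4.19, 4.23 and 8.65 in mCherry libraries, a ratio of means of 3.02 (log2 fold change 1.51 ± 0.248, limma adjusted p = 0.0114). Kcnip3 (KChIP3, also called DREAM or calsenilin, a calcium sensor that binds Kv4 channels) read 87.8, 97.1 and 104 against 23.0, 23.1 and 61.8 (1.55 ± 0.365, adjusted p = 0.032). Kcne1l (the older symbol of Kcne5, a small beta subunit) read 50.8, 64.7 and 30.8 against 19.8, 19.6 and 8.54 (1.57 ± 0.377, adjusted p = 0.0335). For each of the 3 the groups were apart, but the calls rest on few libraries: Kcnf1 lost its call without H-Ras(G12V) library 1 or 2 (highest adjusted p 0.0532), Kcnip3 under 7 and Kcne1l under 6 of the 16 alternatives. Kcnip3 was the 1 KChIP gene of 4 that was called. It made up 71.9 ± 0.783% of their summed FPKM in H-Ras(G12V) and 43.5 ± 3.11% in mCherry libraries, while Kcnip4 was 1.34 ± 0.267% and 6.43 ± 1.66%, and Kcnip2 was 17.2 ± 0.672% and 34.5 ± 11.6%.

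Falls among potassium channel genes were spread over the Kv, Kir, K2P, sodium-activated and accessory groups. Kcnj3 (GIRK1, the channel opened by G protein-coupled receptors) fell most, from 24.2, 23.8 and 29.4 FPKM in mCherry libraries to 7.76, 6.06 and 8.63 in H-Ras(G12V) libraries (-1.67 ± 0.159, limma adjusted p = 0.00233). Its partners Kcnj6 (2.79, 3.14 and 2.75 against 2.66, 3.16 and 4.88) and Kcnj9 (2.43, 4.51 and 3.56 against 3.81, 3.42 and 8.88) overlapped between the groups and were not called. Kcnj11 (Kir6.2, the pore of the ATP-sensitive channel) read 1.13, 1.91 and 1.38 against 4.20, 4.81 and 4.44 (-1.16 ± 0.159, adjusted p = 0.00677) and passed under each of the 15 alternatives in which it was tested. Kcna4 (Kv1.4, an A-type channel of axons) read 4.67, 4.06 and 4.93 against 12.7, 10.8 and 9.81 (-1.12 ± 0.14, adjusted p = 0.00521). Kcnq5, a gene of the M-current, which restrains repetitive firing, read 6.32, 5.99 and 6.12 against 9.27, 10.1 and 14.0 (-0.74 ± 0.164, adjusted p = 0.0266). Kcnk1 (TWIK1) read 24.3, 27.7 and 26.6 against 42.6, 42.8 and 37.0 (-0.62 ± 0.117, adjusted p = 0.0172). The other 3 that fell, the silent subunit Kcns2, the sodium-activated channel Kcnt2 and the beta subunit Kcnmb2 of the BK channel, averaged 1.03, 1.42 and 0.557 FPKM in H-Ras(G12V) and 2.79, 2.74 and 1.92 in mCherry libraries. Kcnmb2 passed the 1 FPKM minimum through its control group, as did the uncalled Kcnb2, Kcnj12, Kcnk4 and Kcns1. Several falls rest on all libraries being kept. Kcnt2 lost its call under 8 of 15 alternatives and Kcnq5 under 7 of 16, in both genes without any 1 of H-Ras(G12V) libraries 1, 2 and 3 or mCherry libraries 1 and 2. Kcnk1 and Cacna1e were each lost under 6 of 16, among them without H-Ras(G12V) library 1 or 3 or mCherry library 1 or 2. Cacna2d1 was lost under 6 of 16 and Cacna1g under 6 of 15, both without any 1 of the H-Ras(G12V) libraries, the first also without mCherry library 2 and the second without mCherry library 1. Scn2a, Scn3a, Kcnj3 and Kcna4 lost their calls under 1 of 16, the single fit of the 12 libraries.

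Other well-known channel genes were not called with H-Ras(G12V). The delayed rectifier Kcnc1 (Kv3.1 of fast-spiking cells; 15.8, 20.7 and 18.4 FPKM against 11.5, 11.7 and 17.8) overlapped between the groups. So did the axonal Kv1 genes Kcna1 (15.3, 13.8 and 13.2 against 11.0, 9.71 and 29.4) and Kcna2 (7.38, 5.89 and 8.48 against 4.78, 4.73 and 10.7). In these 3 genes mCherry library 3 was the highest control. Without it all 3 were called higher, where 25.4% of all tested genes were. The M-current gene Kcnq3 (3.96, 3.27 and 4.74 against 5.27, 5.96 and 15.7) had groups apart with H-Ras(G12V) lower. Kcnma1, the pore of the BK channel, read 10.3, 10.1 and 10.7 against 6.60, 7.83 and 12, and the leak channel Kcnk2 (TREK1) 10.8, 10.7 and 11.3 against 20.1, 22.6 and 8.37. Scn1a (Nav1.1 of inhibitory neurons) read 4.46, 2.99 and 5.66 against 4.85, 4.82 and 16.7. These 3 overlapped, with mCherry library 3 the highest control for Kcnma1 and Scn1a and the lowest for Kcnk2. Of the 6 fits that left out a library, 1 gave a call for Kcnma1, 1 for Kcnk2 and 0 for Scn1a.

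None of the 4 HCN genes was called with H-Ras(G12V) by limma, and 2 had an unadjusted p under 0.05. Hcn2 read 7.97, 13.2 and 7.24 FPKM against 14.8, 14.6 and 13.6 (log2 fold change -0.59 ± 0.213, limma adjusted p = 0.1). Every H-Ras(G12V) library lay below every mCherry library in Hcn2, while Hcn3 overlapped between the groups. Without mCherry library 3, Hcn3 and Hcn4 were called lower by limma, where 19.5% of all tested genes were. All 4 HCN genes then had an unadjusted p under 0.05, as did 53.2% of all tested genes. Hcn2 was called without H-Ras(G12V) library 2 (limma adjusted p = 0.0238) and under no other alternative.

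The count of calls depended on the control libraries. mCherry library 3 lay above both other mCherry libraries in 50 of 81 channel genes (61.7%, against 43.7% of all tested genes), with Kcnab2 at 89.3 FPKM against 14.8 and 16.1 and Kcnn2 at 54.8 against 12.6 and 11.3. Without it, 33 channel genes were lower and 20 higher, with 19.5% and 25.4% of all tested genes (45.0% called in all); that fit leaves only the closely matched mCherry libraries 1 and 2 as controls, and it kept all 18 calls. Its median log2 fold change was -0.26 over the channel genes, and -0.06 over the 59 potassium channel genes, whose median was -0.28 with all libraries. With mCherry libraries 1 and 2 averaged into 1, 9 were lower and 1 higher, with 1.94% and 3.01% of all tested genes. Without H-Ras(G12V) library 1 the counts were 6 and 0, with 1.56% and 2.43%. A single fit of the 12 libraries, whose spread includes the etoposide table, gave 2 lower (Scn3b, Kcnj11) and 2 higher (Kcnf1, Kcne1l), with 0.706% and 1.81%. Scaling the libraries to a common sum gave 19 lower and 3 higher channel genes, with 10.5% lower and 6.73% higher among all tested genes, and median-of-ratios scaling gave 18 and 3, with 8.52% and 8.22%.

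A list of channel partner genes left out by the symbol rule was also counted. It held calcium channel beta and gamma subunits, potassium and HCN channel partners, and sodium channel partners with axon initial segment scaffold genes. A separate sodium leak channel complex, with Fam155a, was on it too. Of its 31 tested genes, 8 fell and 1 rose with H-Ras(G12V), where 6.67% and 10.3% of all tested genes did, and 22 were not called. Their median log2 fold change was -0.31. Fgf13, an intracellular fibroblast growth factor homologue that binds sodium channels, read 49.5, 40.6 and 45.1 FPKM against 132, 146 and 149 (-1.64 ± 0.122, limma adjusted p = 0.00142). Cacnb3, a calcium channel beta subunit, read 21.6, 24.6 and 18.2 against 54.6, 59.7 and 48.1 (-1.30 ± 0.149, adjusted p = 0.00399). Ank3, which encodes the ankyrin-G scaffold of the axon initial segment, averaged 22.1 ± 1.57 against 34.4 ± 0.708 and also fell, as did Nedd4l, Cntnap2, Dpp6, Fgf14 and Fam155a. Cacng5 rose, from 7.91 ± 3.15 to 17.5 ± 1.11 (adjusted p = 0.0234).

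Markers of several cell types moved with the H-Ras(G12V) comparison. The summed FPKM of the 15 neuronal markers was 1924 to 2380 in H-Ras(G12V) and 3015 to 3338 in mCherry libraries, with 3 lower and 1 higher. A sum is weighted to the highest genes. The median log2 difference of these markers from the mCherry mean was -0.41, -0.53 and -0.48 in H-Ras(G12V) libraries 1 to 3. It was -0.46, -0.35 and 0.73 in mCherry libraries 1 to 3, so by this measure the groups overlapped. Astrocyte markers summed to 2603 to 3749 against 1205 to 3163 (3 of 10 higher), oligodendrocyte lineage markers to 921.5 to 1120 against 228.8 to 763.4 (6 of 9 tested higher) and progenitor or dividing-cell markers to 1631 to 2062 against 573.5 to 700.0 (5 of 6 higher). Fibroblast and mural markers summed to 37.7 to 40.8 against 181 to 244 (9 of 10 lower), microglia and macrophage markers to 35.7 to 65.0 against 19.9 to 28.6 (2 of 4 tested higher) and endothelial markers to 1.91 to 2.19 against 1.52 to 5.14 (0 of 1 tested called by limma, at an unadjusted p under 0.05). No marker was at 0 in all libraries. The part of these cell types in the channel gene results was not tested.

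With etoposide, no channel gene was called, and the 3 etoposide libraries did not behave alike. By limma, 0 of 82 were called, with 0.453% of all 12371 tested genes called; 15 channel genes (18.3%, against 13.9% of all tested genes) had an unadjusted p under 0.05, and 14 of them (17.1%, against 6.52%) were lower. The 15 include Kcne4, the only higher one, which passed the 1 FPKM minimum only through its etoposide group. They also include Kcng4, which passed only through DMSO. Genes that pass in this way had to differ. The median log2 fold change was -0.58 over the channel genes and 0.09 over all tested genes, and 69 of 82 values were negative (84.1%, against 43.0% of all tested genes). Etoposide library 1 lay below all 3 DMSO libraries in 69 of 82 channel genes (84.1%, against 34.2% of all tested genes) and library 2 in 55 (67.1%, against 27.8%). Library 3 did so in 12 (14.6%, against 27.3%). Values above all 3 DMSO libraries were found in 8 channel genes in library 1 (9.76%, against 42.5%) and in 12 in library 2 (14.6%, against 46.8%). Library 3 went the other way, above all 3 in 29 (35.4%, against 21.6%). The whole groups were apart in 12 channel genes, 10 with etoposide below DMSO and 2 above, where 8.17% and 7.64% of all tested genes were. Kcng4 is among those 10. Median log2 differences from the DMSO mean were -1.22, -0.66 and 0.18 in libraries 1, 2 and 3, where all tested genes had 0.11, 0.20 and -0.02. Libraries 1 and 2 were both below every DMSO library in 54 channel genes (65.9%, against 23.5%) and both above in 7 (8.54%, against 36.0%).

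**Figure D2:**
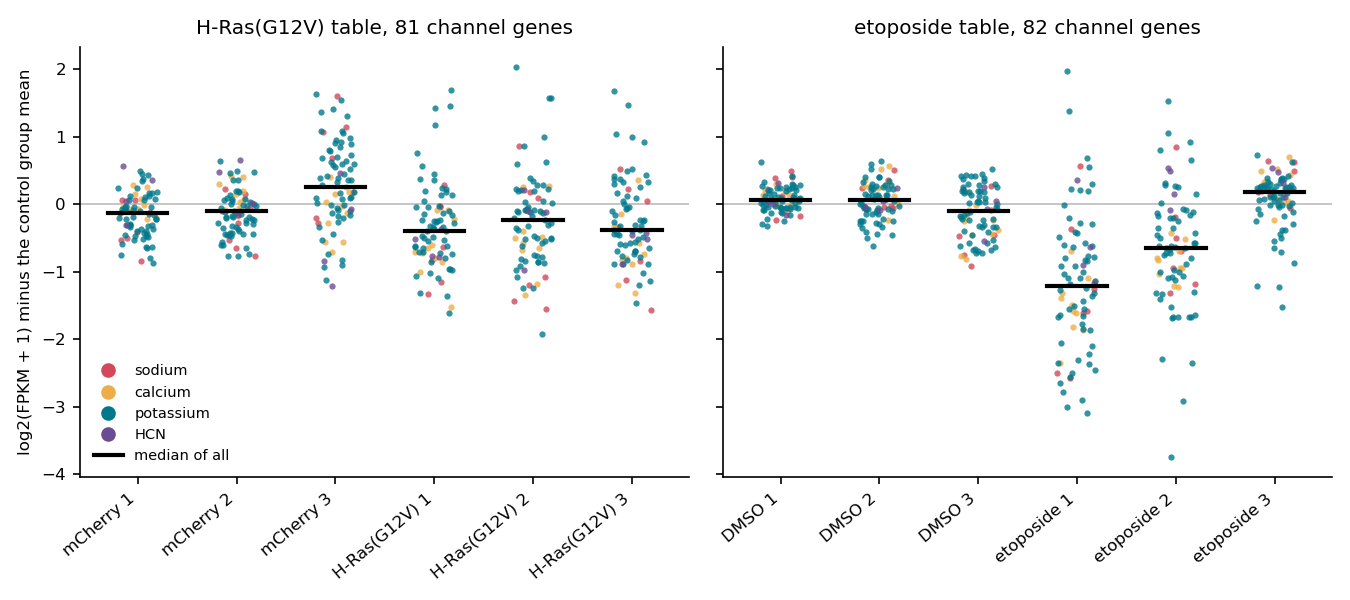
Difference of each library from its control group mean on the log2(FPKM + 1) scale, 1 point per channel gene coloured by class, with the median of all channel genes as a black bar. The medians of etoposide libraries 1 and 2 lie at -1.22 and -0.66. That of etoposide library 3 lies at 0.18, above those of DMSO libraries 1, 2 and 3 (0.062, 0.057 and -0.10). The median of mCherry library 3 lies at 0.26.

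Summed FPKM in etoposide libraries 1 and 2 lay below every DMSO library for calcium and potassium channel genes. The sum of the 11 calcium channel genes was 30.5, 55.6 and 136 in etoposide libraries 1 to 3 and 114, 129 and 82.6 in the DMSO libraries. For the 60 potassium channel genes it was 293, 436 and 793 against 902, 831 and 954. Sodium channel genes summed to 159, 209 and 251 against 199, 207 and 198, and HCN genes to 38.0, 54.0 and 49.2 against 38.7, 39.3 and 43.1, with overlap in both. Kcne4, an accessory subunit, read 3.98, 2.65 and 0.35 against 0.21, 0.38 and 0.20, with libraries 1 and 2 above every DMSO library and library 3 within their range, and it passed the 1 FPKM minimum through them.

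The lowest log2 fold changes with etoposide, on the log2(FPKM + 1) scale, were those of 2 of the 9 Kir genes and 1 of the 4 KChIP genes. Kcnj10 read 4.62, 2.36 and 18.3 FPKM against 51.2, 30.9 and 54.8 (log2 fold change -2.66 ± 0.577, limma adjusted p = 0.15). Kcnj16 (Kir5.1, which pairs with Kir4.1) read 0.42, 0.40 and 2.70 against 15.4, 6.81 and 8.36 (-2.45 ± 0.449, adjusted p = 0.0773). Kcnip3 read 9.01, 12.7 and 28.9 against 68.0, 51.3 and 91.7 (-2.12 ± 0.417, adjusted p = 0.0987). A single fit of the 12 libraries called these 3 and no other channel gene with etoposide (adjusted p of 0.0279, 0.0242 and 0.0288), where 1.23% of all tested genes were lower. In these 3 genes library 3 was also below every DMSO library, by less than libraries 1 and 2. The same held for Kcnn2 (SK2, a calcium-activated channel), which read 3.47, 6.91 and 17.6 against 29.05, 20.2 and 24.6. Library 3 was not below every DMSO library in 3 other genes: Kcnd2 (Kv4.2) read 1.82, 4.57 and 16.6 against 22.7, 20.4 and 10.0, Kcnv1, a silent Kv subunit, 0.32, 1.28 and 10.1 against 11.5, 10.8 and 8.55, and Scn2a 3.33, 9.89 and 33.5 against 31.6, 34.1 and 12.1. DMSO library 3 was itself the lowest control for Kcnd2, Kcnv1 and Scn2a. Cacna1a (5.42, 6.73 and 15.5 against 15.7, 16.4 and 12.9) and Kcnab2 (14.8, 28.4 and 64.3 against 68.6, 56.6 and 97.8) had the same order of etoposide libraries as Kcnd2, Kcnv1 and Scn2a. That order, library 1 below 2 below 3, held in 59 of 82 channel genes (72.0%, against 24.8% of all tested genes). The libraries are replicates, and their numbers carry no order of treatment.

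Without etoposide library 3, 44 of 82 channel genes were lower and 1 (Kcne4) higher at an adjusted p under 0.05, where 13.3% and 18.3% of all tested genes were. Kcne4 passed the 1 FPKM minimum only through its etoposide group, and Kcng4 and Kcns1, 2 of the 44, only through DMSO; genes that pass in this way had to differ. The 44 were 4 of 7 sodium, 9 of 11 calcium and 31 of 60 potassium channel genes; none of the 4 HCN genes was called by limma, and none had an unadjusted p under 0.05. The largest log2 fold changes in that fit were -3.38 ± 0.332 for Kcnj10, -2.91 ± 0.332 for Kcnj16, -2.69 ± 0.304 for Kcnv1 and -2.57 ± 0.295 for Kcnip3. A library left out after it was seen to stand apart gives a description of the other 2 etoposide libraries, not of the treatment. Of the 32 tested partner genes 0 were called with all libraries by limma (3 at an unadjusted p under 0.05) and 16 were lower without etoposide library 3.

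Markers again moved with the libraries. Neuronal markers summed to 1373, 2838 and 4120 FPKM in etoposide libraries 1 to 3 and 3528 to 3943 in DMSO libraries (0 of 15 called by limma, 2 at an unadjusted p under 0.05). Astrocyte markers summed to 631 to 990 against 1051 to 1628 (0 of 10 called, 6 at an unadjusted p under 0.05) and oligodendrocyte lineage markers to 77.9 to 220 against 539 to 908 (3 of 8 tested lower). Microglia and macrophage markers summed to 156, 108 and 30.8 against 23.3 to 60.4, fibroblast and mural markers to 87.9 to 408 against 137 to 394 and progenitor or dividing-cell markers to 228 to 862 against 233 to 297; limma called none of these, with 1 of 5, 0 of 10 and 1 of 5 tested at an unadjusted p under 0.05. Endothelial markers, none of them tested, summed to 1.46 to 5.40 against 0.51 to 1.77. The order of the neuronal sums follows that of the channel gene medians in these 3 libraries; its part in the result was not tested.

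The effects of the 2 models were compared by an interaction contrast, the log2 fold change with H-Ras(G12V) minus that with etoposide. Of 80 channel genes, 4 had a higher and 1 a lower effect with H-Ras(G12V) at an adjusted p under 0.05 (limma over 12 libraries), where 2.5% and 0.279% of all 12179 genes did and 2.78% in all. Kcnip3 had the largest difference, 3.67 ± 0.6 (SE) on the log2 scale (adjusted p = 0.00457), and passed under all 20 alternatives that keep the groups as titled. Kcnj10 (3.57, adjusted p = 0.0226) and Kcnj16 (3.11, adjusted p = 0.0263) followed, but were lost under 7 and 8 of the 20 alternatives. In H-Ras(G12V) libraries Kcnj10 read 101, 68.3 and 83.8 FPKM against 33.9, 32.3 and 76.8, which overlap and were not called. Kcnf1 had a difference of 1.95 (adjusted p = 0.0151) with 3.39, 5.08 and 6.06 in etoposide against 5.66, 8.06 and 6.79 in DMSO libraries, and was lost without mCherry library 1 or 2 (highest adjusted p 0.0564). Scn3b had the only lower effect, -1.51 (adjusted p = 0.0397), which was lost under 14 of the 20 alternatives; in etoposide libraries it read 33.5, 38.2 and 68.8 against 47.6, 42.3 and 41.1. These differences depend on which of the conflicting labels of the etoposide table is right. With the etoposide and DMSO groups exchanged, as the treatment tags give them, 0 of the 80 were called by limma, where 0.846% of all genes were higher and 0.386% lower. An unadjusted limma p under 0.05 was found in 33 of the 80 (41.2%, against 24.8% of all genes). The differences were then -0.57 for Kcnip3 (adjusted p = 0.559), -1.76 for Kcnj10, -1.78 for Kcnj16, 1.07 for Kcnf1 and -1.45 for Scn3b (adjusted p = 0.0667).

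**Figure D3:**
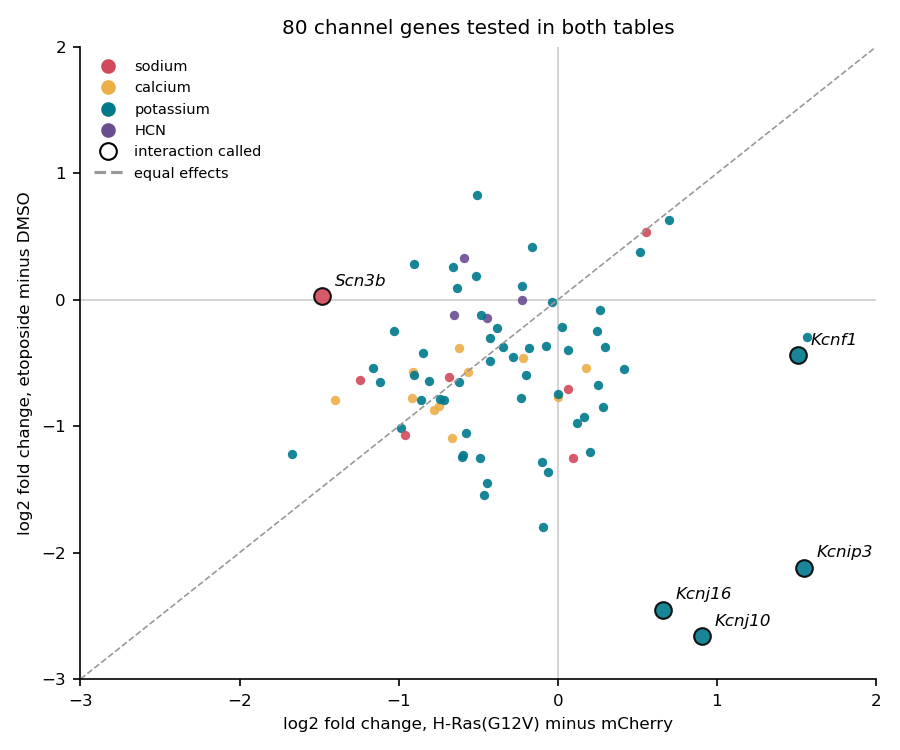
Log2 fold change with etoposide against log2 fold change with H-Ras(G12V) for the 80 channel genes tested in both tables, coloured by class, with the line of equal effects dashed. The 5 genes with a passing interaction are outlined and named; Kcnip3, Kcnj10 and Kcnj16 lie at the lower right and 48 genes are negative on both axes.

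**Figure D4:**
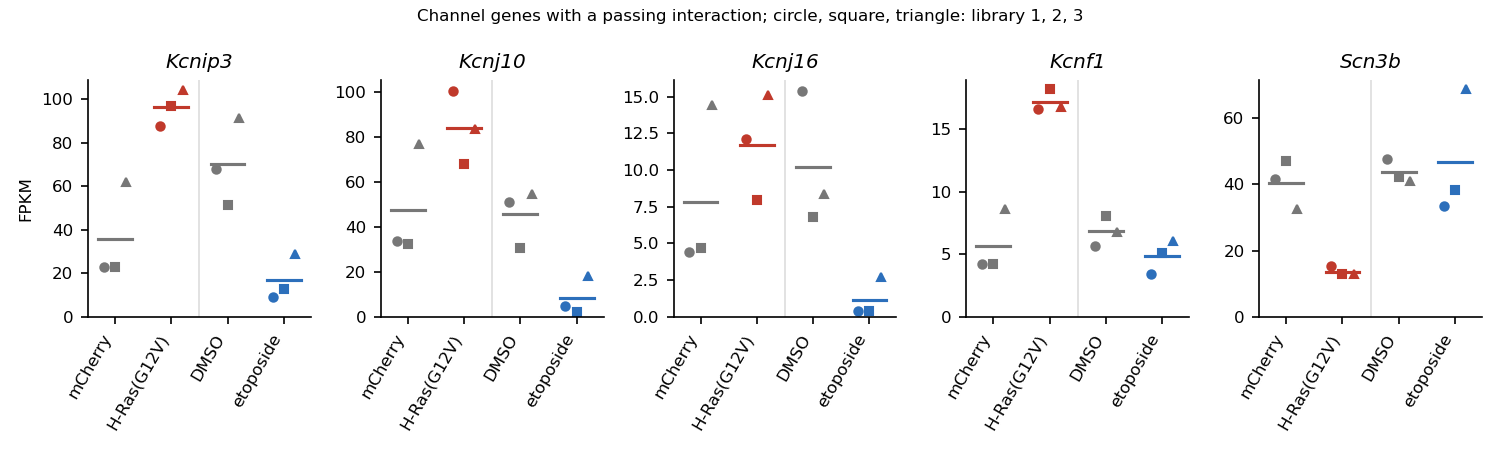
FPKM of the 5 genes with a passing interaction in all 12 libraries, with group means as bars and libraries 1, 2 and 3 as circle, square and triangle. Kcnip3 lies between 87.8 and 104 with H-Ras(G12V) and between 9.01 and 28.9 with etoposide.

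The log2 fold change was negative in each model for 48 of the 80 channel genes (60%, against 22.6% of all 12179 genes) and positive in each for 3 (3.75%, against 34.0%). It was positive with H-Ras(G12V) and negative with etoposide for 20 (25.0%, against 20.7%) and the reverse for 9 (11.2%, against 22.7%). The rank correlation of the 2 effects was 0.0421 over the 80 channel genes and 0.172 over all 12179 genes, given as a description across genes, which share libraries. The make-up of families differed between models. Kcnip3 was 21.2 ± 2.94% of KChIP FPKM in etoposide and 38.6 ± 4.51% in DMSO libraries, the reverse of the H-Ras(G12V) table. Kcnj10 and Kcnj16 together made up 71.7 ± 5.51% of the FPKM of the 9 Kir genes in H-Ras(G12V) against 43.8 ± 4.72% in mCherry, and 11.8 ± 7.93% in etoposide against 40.4 ± 9.38% in DMSO libraries. Both genes are also expressed by astrocytes and oligodendrocyte lineage cells, and their part in these shares was not tested.

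Channel genes were long. Their median span was 59.5 kb in the H-Ras table, against 25.8 kb for all tested genes (GENCODE M21, on GRCm38). Of the 33 channel genes of at least 100 kb, 9 fell with H-Ras(G12V) (27.3%, against 14.8% of all tested genes of that length), with a median log2 fold change of -0.62. Of the 48 shorter ones 6 fell (12.5%, against 5.19%), with a median of -0.20. Over all tested genes the medians were -0.08 and 0.07. In the etoposide table the rank correlation of span with the difference from the DMSO mean was -0.27, -0.08 and 0.28 over 82 channel genes in etoposide libraries 1, 2 and 3, and -0.15, -0.05 and 0.30 over 12165 genes with a span. These correlations are across genes of the same libraries, and the part of gene length in the results was not tested.

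The genes left out by the 1 FPKM minimum were mostly far below it. They included the sensory neuron sodium channels Scn10a and Scn11a, the skeletal muscle genes Scn4a and Cacna1s, the retinal Cacna1f and the epithelial Kcnj1. Just inside the minimum lay Kcnk4 at 1.06 and Kcnj12 at 1.10 FPKM in the H-Ras table and Kcnmb2 at 1.18 in the etoposide table. Just outside lay Cacna2d4 at 0.89, Kcnh7 at 0.823 and Kcns3 at 0.803 in the first and Kcnu1 at 0.823 in the second.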

How the data were processed

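FPKM values with 2 decimals were deposited by the authors in 2 tables, as their file headers show. HISAT, Bowtie2, RSEM and mm9 are named, without version or role, in the submitters' processing notes. Each table was treated as normalised on its own, and no counts were used. Genes averaging 1 FPKM or more in a table were tested on the log2(FPKM + 1) scale, which understates changes of low genes, with limma 3.58.1 in R 4.3.3 (lmFit, eBayes with trend). Tests were two-sided, adjusted by Benjamini-Hochberg over all tested genes and called under 0.05. The interaction used all 12 libraries. The fit was also run on simulated data with independent noise in each library. Those data held no closely matched libraries and none that stood apart, so they do not cover the libraries that moved the counts here. Members and lists were chosen with earlier results of these data known. By rule, every member could be named; library values were given for up to 8 called genes per direction, passing interactions, the 3 highest of each class and 30 fixed genes, and further genes were added after their values were seen. Some of these genes are not reported here. Alternatives were other pseudocounts, filters and scalings, a replicate block, no trend, a single fit, averaged controls leaving out each library and, added after seeing the data, exchanging the etoposide and DMSO groups in the interaction.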

Additional observations from a re-analysis of the deposited data

Results flagged for a closer look

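Effects of the 2 models differed, by the interaction contrast in limma over 12 libraries, for 5 channel genes. The log2 fold change with H-Ras(G12V) minus that with etoposide was 3.67 for Kcnip3, 3.57 for Kcnj10, 3.11 for Kcnj16, 1.95 for Kcnf1 and -1.51 for Scn3b. Kcnip3 was called higher with H-Ras(G12V) within its table, as was Kcnf1, and Scn3b was called lower; Kcnj10 and Kcnj16 were called in neither table alone. Without etoposide library 3 the differences were 4.12 for Kcnip3, 4.29 for Kcnj10, 3.58 for Kcnj16 and 2.10 for Kcnf1, and that for Scn3b was -1.21. With the etoposide and DMSO groups exchanged, as the treatment tags give them, none of the 5 was called by limma. In that fit 33 of the 80 channel genes had an unadjusted p under 0.05 (41.2%, against 24.8% of all genes). The differences were then -0.57 for Kcnip3, -1.76 for Kcnj10, -1.78 for Kcnj16, 1.07 for Kcnf1 and -1.45 for Scn3b. Groups of 3 libraries were not examined for single outlying libraries by a test.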

How the results depend on the processing

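Over the channel genes with library values in the text and the alternatives that keep the groups as titled, 1147 gene results kept direction and side of the threshold, 97 lost a call, 47 gained one and 35 changed sign, all 35 in genes not called. An alternative chosen after seeing the data exchanged the etoposide and DMSO groups, as their treatment tags do. The interaction then called 0 channel genes by limma, 0 higher and 0 lower, with -0.566 for Kcnip3, -1.76 for Kcnj10 and -1.78 for Kcnj16. In it 33 channel genes had an unadjusted p under 0.05 (41.2%, against 24.8% of all genes). Leaving out 1 library at a time gave 6 to 53 channel genes called with H-Ras(G12V) (0 to 20 higher, 6 to 33 lower), 0 to 45 with etoposide (0 to 1 higher, 0 to 44 lower) and 1 to 20 in the interaction (1 to 16 higher, 0 to 4 lower). The highest counts came without mCherry library 3, etoposide library 3 and again etoposide library 3, and the lowest for H-Ras(G12V) without its library 1. With mCherry libraries 1 and 2 averaged, 10 were called with H-Ras(G12V), 1 higher and 9 lower. The single fit of the 12 libraries gave 4 with H-Ras(G12V), 2 of them lower, and 3 with etoposide, 3 of them lower. In the interaction, common-sum scaling left 3 called, and the lower count, Scn3b alone, was 0 with a pseudocount of 5, with a minimum of 5 FPKM, with common-sum and median-of-ratios scaling and with the replicate block. No other count of calls moved by over 1.5 times with these settings; the cause of each change was not tested. Replicate numbers did not pair the samples: correlations of same-numbered deviations were -0.0387, 0.0343 and 0.119 in the H-Ras table and -0.265, -0.171 and -0.151 in the etoposide table. With the replicate block 19 channel genes were called with H-Ras(G12V), 0 with etoposide and 4 in the interaction.

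Sign changes in log2 fold change were as follows. With H-Ras(G12V), common-sum scaling gave -0.126 for Cacna1a, -0.0375 for Scn2b and -0.0644 for Scn8a, and median-of-ratios scaling gave -0.0621 for Cacna1a and -0.00122 for Scn8a. Averaging mCherry libraries 1 and 2 gave -0.0395 for Cacna1a, -0.00266 for Kcna2, -0.308 for Scn2b and -0.109 for Scn8a. With etoposide, a pseudocount of 5 gave 0.0113 for Hcn3, and Scn3b was -0.0728 with common-sum and -0.0633 with median-of-ratios scaling. Without 1 library at a time, H-Ras(G12V) values ran from -0.118 to 0.0923 for Cacna1a, -0.643 to 0.0167 for Hcn3, -0.342 to 0.411 for Kcna1, -0.00579 to 0.507 for Kcna2, -1.04 to 0.22 for Kcnab2, -0.504 to 0.67 for Kcnip2, -0.853 to 0.239 for Kcnn2, -0.472 to 0.585 for Kcnv1, -0.328 to 0.895 for Scn2b and -0.138 to 0.411 for Scn8a. Etoposide values ran from -0.953 to 0.00491 for Cacna2d3, -0.245 to 0.31 for Hcn3, -0.581 to 0.093 for Kcnj9, -0.288 to 0.0331 for Kcnk2 and -0.277 to 0.231 for Scn3b. Depth is an estimate, and values near 1 FPKM rest on few fragments.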
